A study of Mus musculus with 10 samples.

Results

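Cell cycle genes of DNA replication and mitosis were followed through injury and recovery of the mouse kidney, cell class by cell class. The set held 45 genes, 20 replication members and 25 mitotic members. All 45 were found among the 28808 gene symbols of the 10 count tables. Membership was a list of gene names without a threshold on any measured value, and the list was drawn up with earlier results of these data known.

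The data were single-cell libraries made by Drop-seq, a droplet method in which each bead marks the RNA of 1 cell with a barcode and the 3′ end of each transcript is sequenced. The tissue was kidney cortex of mice aged 4 weeks. Normal kidneys gave 1 control library. Injured kidneys gave 1 library each for day 1, day 2 and day 4 and 2 libraries each for day 7, day 11 and day 14. The kind of injury, the strain and sex of the mice, and whether the 2 libraries of a day came from different animals were not given in the sources used here, so p-values measure only the spread between these libraries, which may be technical.

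Before a cell divides it copies its DNA in S phase. The MCM helicase unwinds the duplex, the sliding clamp Pcna holds the polymerases in place, and ribonucleotide reductase and thymidylate synthase supply nucleotides. In G2 phase and mitosis, cyclins A and B bind Cdk1, the Aurora and Polo kinases and kinesin motors build and drive the spindle, and Cdc20 and Ube2c direct the anaphase-promoting complex to destroy the cyclins. Adult renal tubule cells rarely divide, and division of surviving tubule cells is a known part of repair after acute injury. The mice here were aged 4 weeks, so the adult state is not taken as the baseline of these libraries. Transcription of the replication genes is commonly tied to E2F factors, and that of the mitotic genes to the DREAM and MMB complexes, which bind a CHR element often near CCAAT boxes.

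Promoter windows, from 250 bases before to 50 bases after the annotated start, were matched by symbol in RefSeq (GRCm38.p6) for 37 of the 45 members. The 8 without an entry were Mcm4, Gins2, Rfc2, Ccne2, Tipin, Ccna2, Tpx2 and Aurkb. Both strands were searched for the CHR (TTTGAA or TTCGAA), the CCAAT box (CCAAT) and an E2F motif (TTTGGCGC, TTTCCCGC, TTTCGCGC, TTTGCCGC, TTTGGCGG or TTTCCCGG), and matches of different motifs could overlap. A CHR match lay in 17 of 22 mitotic windows (77.3%), in 3 of 15 replication windows (20%) and in 19.4% of the 27025 windows searched. A CHR together with a CCAAT box lay in 72.7% of the mitotic, 13.3% of the replication and 7.70% of all windows. The E2F motif lay in 33.3% of the replication, 9.09% of the mitotic and 4.04% of all windows. The letters alone are a description of these windows, not evidence of a bound factor.

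Shown first are a replication window with E2F letters (Mcm3, chr1:20820263-20820562, minus strand) and 3 mitotic windows that hold both the CHR and CCAAT boxes (Cdk1, chr10:69352863-69353162; Ccnb2, chr9:70421505-70421804; Top2a, chr11:99024140-99024439; all minus strand). The last is Kif20b (chr19:34922108-34922407, plus strand), which has the CHR without a CCAAT box and whose counts ran against those of the other mitotic members. Each runs 5′ to 3′ on the gene's strand, and capitals mark every CHR, CCAAT and E2F match on either strand.
Mcm3: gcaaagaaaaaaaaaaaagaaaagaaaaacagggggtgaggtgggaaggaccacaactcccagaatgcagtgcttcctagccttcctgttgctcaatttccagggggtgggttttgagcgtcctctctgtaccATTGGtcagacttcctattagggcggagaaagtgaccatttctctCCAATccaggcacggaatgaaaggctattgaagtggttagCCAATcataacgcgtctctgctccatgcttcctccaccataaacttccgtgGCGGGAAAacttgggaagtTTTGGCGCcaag
Cdk1: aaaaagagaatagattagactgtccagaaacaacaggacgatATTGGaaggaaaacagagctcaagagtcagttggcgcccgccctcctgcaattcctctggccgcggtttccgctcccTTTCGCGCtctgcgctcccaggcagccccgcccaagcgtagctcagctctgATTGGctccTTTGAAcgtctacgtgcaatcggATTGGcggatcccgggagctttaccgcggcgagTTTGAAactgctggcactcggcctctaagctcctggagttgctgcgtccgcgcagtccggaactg
Ccnb2: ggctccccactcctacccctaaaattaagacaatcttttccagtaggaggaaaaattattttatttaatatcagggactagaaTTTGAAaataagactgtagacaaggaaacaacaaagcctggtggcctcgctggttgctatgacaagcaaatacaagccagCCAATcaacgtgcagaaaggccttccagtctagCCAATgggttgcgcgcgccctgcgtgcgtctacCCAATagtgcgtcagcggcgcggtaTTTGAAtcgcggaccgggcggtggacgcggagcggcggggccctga
Top2a: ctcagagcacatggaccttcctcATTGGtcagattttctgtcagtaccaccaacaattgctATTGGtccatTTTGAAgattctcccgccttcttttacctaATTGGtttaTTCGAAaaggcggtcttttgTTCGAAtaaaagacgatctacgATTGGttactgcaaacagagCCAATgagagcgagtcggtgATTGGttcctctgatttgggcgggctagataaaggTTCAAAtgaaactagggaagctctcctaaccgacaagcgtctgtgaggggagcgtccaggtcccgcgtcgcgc
Kif20b: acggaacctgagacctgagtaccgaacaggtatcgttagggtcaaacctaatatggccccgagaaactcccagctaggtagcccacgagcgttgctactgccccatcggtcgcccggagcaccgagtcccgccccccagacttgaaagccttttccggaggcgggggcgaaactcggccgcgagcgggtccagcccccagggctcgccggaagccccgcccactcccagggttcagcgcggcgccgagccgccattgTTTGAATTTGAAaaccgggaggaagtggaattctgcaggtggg
These windows are examples and do not sort the mitotic members by their change in tubular cells on day 7. Of the 16 with both CHR and CCAAT letters 15 rose, Tubb4b being the exception, and of the 6 without both 4 rose, Cks2 and Kif20b being the exceptions.

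The 10 tables held 7091848 to 31632205 counts each, read here as unique molecular identifiers (UMIs, 1 per captured transcript). After filters, 52797 of 64803 barcodes were kept as cells, 3568 to 6941 per library, and libraries shared at most 4 barcodes a pair. Cells were assigned to a class from raw marker UMIs. Tubular cells numbered 1507 to 6296 per library, immune cells 58 to 1852 and endothelial cells 68 to 283. All 24 tubular markers were detected in the tubular class of every library, and all 14 endothelial markers in the endothelial class of the control. The immune class lacked Cd79b on day 1 and Cd79a in the first library of day 11. The gate used these same markers, so their detection is no check of cell identity. The control had 74 immune cells and 267 endothelial cells, which limits the comparisons of these classes against it. Other groups held few cells too: day 14 had 68 and 58 immune cells, and day 7 had 68 and 245 endothelial cells. Levels are given in CPM, the UMIs of a gene summed over a class in each library and scaled to a common total of 1000000 UMIs with TMM, a correction for differences in RNA composition. Totals were taken over the genes tested in a class, and TMM was fitted within each class. Because these are sums over cells, fewer dividing cells and less RNA per dividing cell cannot be told apart.

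In tubular cells, replication genes rose by day 7. The control is 1 library, so its own spread was not measured, and each test against it takes the spread from the groups with 2 libraries. Of 20 replication members, 14 were higher than in the control and 0 were lower at an adjusted p under 0.05 (edgeR quasi-likelihood test, Benjamini-Hochberg over 16199 genes), against 16.4% of all tested genes called higher, 17.9% called lower and 34.3% called in either direction. The median log2 fold change of the 20 was 1.10, against 0.04 over all genes. The largest changes were those of Uhrf1, which reads hemimethylated DNA behind the fork (2.69 ± 0.42 SE, adjusted p = 0.000694), Mcm5 (2.51 ± 0.53, adjusted p = 0.00403) and Mcm3 (2.34 ± 0.40, adjusted p = 0.00112).

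Mcm5, a subunit of the replicative helicase, stood at 0.828 CPM in the control, 20.4 on day 1, 7.21 on day 2, 11.9 on day 4, 3.21 and 5.87 on day 7, 2.11 and 0.918 on day 11, then 1.74 and 1.10 on day 14. Both day 7 libraries lay above the control and above all 4 later libraries. Rrm2, the regulated subunit of ribonucleotide reductase, stood at 6.88 in the control, 57.7, 22.1 and 42.5 on days 1, 2 and 4, 18.6 and 24.4 on day 7, 5.85 and 5.77 on day 11, then 10.5 and 8.10 on day 14. Its day 7 change was 1.66 ± 0.27 (adjusted p = 0.000858), and the day 11 libraries lay below the control. Mcm2, another helicase subunit, stood at 3.27 in the control, 21.03, 11.4 and 15.8 on days 1, 2 and 4, 10.6 and 11.1 on day 7, 5.85 and 7.61 on day 11, then 7.87 and 8.78 on day 14, so that every injured library lay above the control.

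Some replication members changed by less. Pcna stood at 45.3 in the control, 148 on day 1, 47.7 and 59.6 on days 2 and 4, 62.8 and 50.8 on day 7, and between 36.0 and 45.6 in the 4 later libraries. Its day 7 log2 fold change was 0.32 ± 0.23 (adjusted p = 0.299), so only the day 1 library stood far from the others. Mcm6 changed by 0.69 ± 0.35 (adjusted p = 0.149), Ccne2, the S phase cyclin E2, by 0.59 ± 0.36 (adjusted p = 0.226) and the clamp loader subunit Rfc2 by 0.23 ± 0.19 (adjusted p = 0.389). Slbp, which binds histone mRNA, and the uracil glycosylase Ung changed by 0.13 and -0.14. These 6 did not pass the test on day 7. Tyms, the thymidylate synthase, passed with 1.07 ± 0.23 (adjusted p = 0.00477): it stood at 8.54 in the control, 36.7, 24.3 and 26.2 on days 1, 2 and 4, 16.4 and 19.2 on day 7, 16.9 and 15.3 on day 11, then 21.4 and 22.6 on day 14. Cdc6, the loader of the helicase, rose by 1.62 ± 0.55 (adjusted p = 0.0415), from 0.566 in the control to 1.35 and 2.02 on day 7, but lost its call in 10 alternative analyses. Without the second day 7 library its adjusted p was 0.207.

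**Figure D1:**
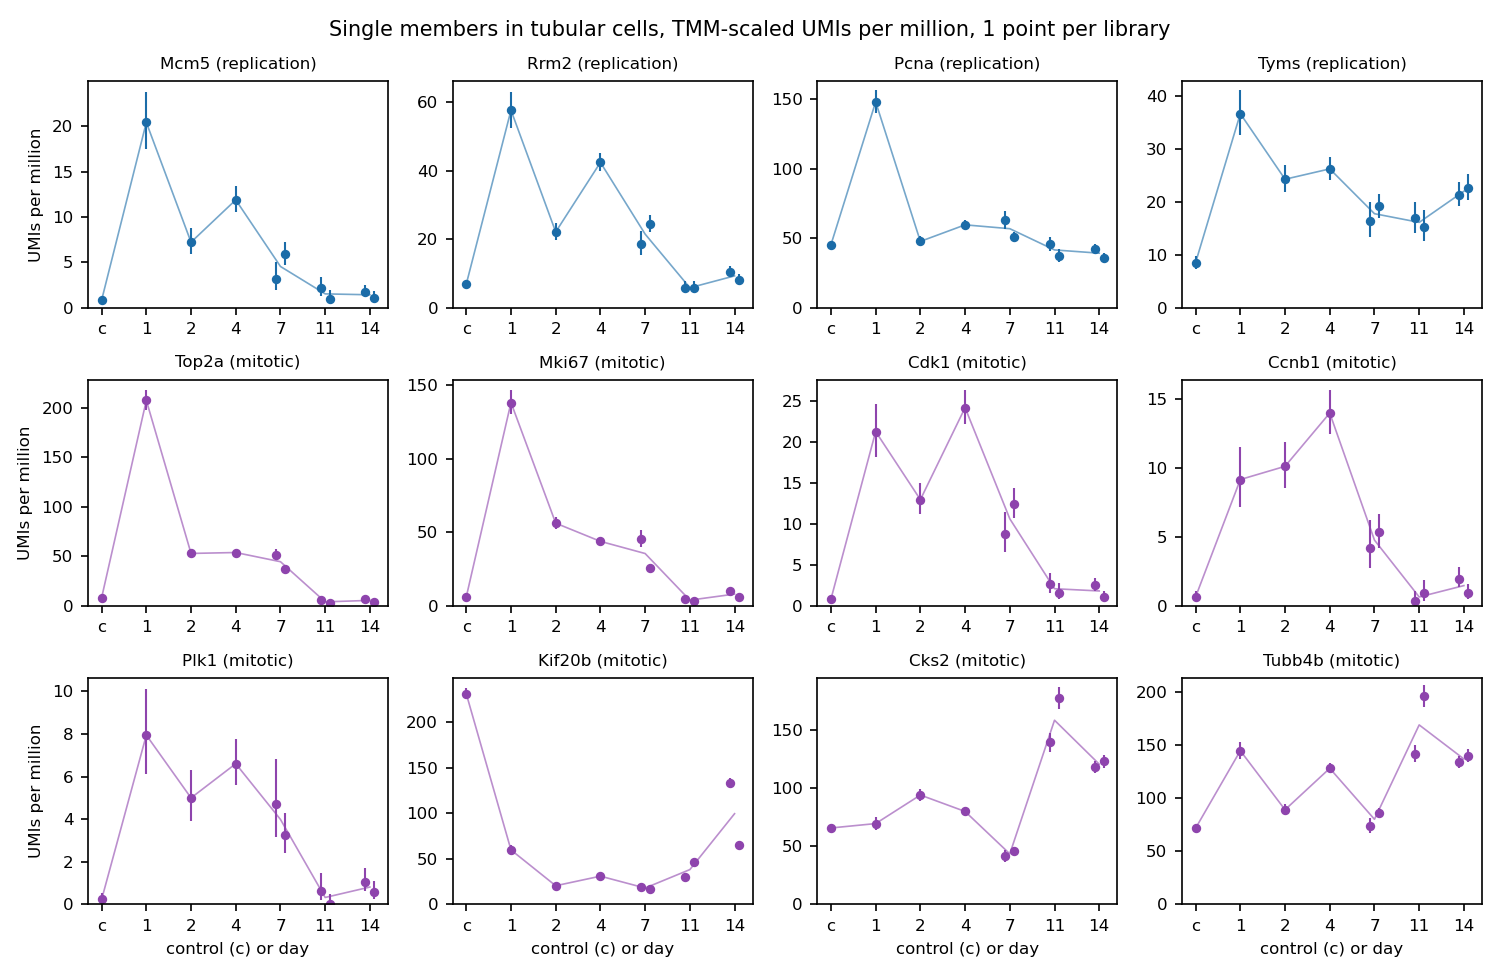
Levels of 12 members in tubular cells, with the control (c) or day on the x axis and TMM-scaled CPM on the y axis, which starts at 0 and has its own range in each panel. Each point is 1 library with its 95% Poisson interval and lines join group means; Top2a stood at 207 on day 1 and 8.19 in the control, while Kif20b stood highest in the control, at 231.

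The mitotic members had the larger median change, a difference between the sets that was not tested. Of the 25, 22 were higher on day 7 than in the control and 1, Kif20b, was lower. Their median log2 fold change was 2.51. The largest rises were those of the mitotic kinases Plk1 (4.09 ± 0.80, adjusted p = 0.00253), Aurkb (3.96 ± 0.82, adjusted p = 0.00373) and Cdk1 (3.70 ± 0.50, adjusted p = 0.000253) in edgeR's quasi-likelihood test. Plk1 rests on 5 UMIs in the control, so its fold is loosely known. Its level was 0.218 in the control, 7.95, 4.99 and 6.60 on days 1, 2 and 4, 4.72 and 3.24 on day 7, 0.622 and 0 UMIs on day 11, then 1.05 and 0.549 on day 14. Aurkb stood at 0.218 in the control, 8.80, 4.23 and 7.40 on days 1, 2 and 4, 2.87 and 3.98 on day 7, 1.62 and 0.262 on day 11, then 1.30 and 0.549 on day 14. For both kinases the 5 libraries of days 1 to 7 lay above all the others. Tubb4b and Cks2 did not pass.

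Top2a, the topoisomerase that untangles sister chromosomes, stood at 8.19 in the control, 207 on day 1, 52.9 and 53.9 on days 2 and 4, 51.6 and 37.5 on day 7, 5.47 and 2.62 on day 11, then 6.94 and 4.12 on day 14. Its day 7 rise was 2.43 ± 0.38 (adjusted p = 0.000665), and all 4 later libraries lay below the control. Mki67, which coats mitotic chromosomes and serves as the standard marker of cycling cells, stood at 6.14 in the control, 138, 56.3 and 43.9 on days 1, 2 and 4, and 45.5 and 25.6 on day 7. It was 4.48 and 3.28 on day 11, then 9.98 and 6.04 on day 14, on either side of the control. Its day 7 rise was 2.51 ± 0.40 (adjusted p = 0.00075).

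The cyclin and kinase members followed the same direction. Cdk1 stood at 0.828 in the control, 21.3, 13.0 and 24.2 on days 1, 2 and 4, 8.77 and 12.5 on day 7, 2.61 and 1.57 on day 11, then 2.54 and 1.10 on day 14. Every injured library lay above the control for Cdk1. Its partner Ccnb1, cyclin B1, stood at 0.653 in the control, 9.17, 10.1 and 14 on days 1, 2 and 4, 4.22 and 5.33 on day 7, 0.373 and 0.918 on day 11, then 1.98 and 0.961 on day 14. Its day 7 rise was 2.88 ± 0.52 (adjusted p = 0.00169). Ccna2, cyclin A2, rose by 2.79 ± 0.35 (adjusted p = 0.000149), and Ccnb2, cyclin B2, by 3.37 ± 0.57 (adjusted p = 0.00104).

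Ube2c, Cdc20 and Birc5, which act around anaphase, were among the members that rose. Ube2c, an E2 enzyme of the anaphase-promoting complex, stood at 1.44 in the control, 23.4, 18.9 and 26.2 on days 1, 2 and 4, and 14.5 and 17.0 on day 7 (3.46 ± 0.47, adjusted p = 0.000261). It was 2.86 and 1.31 on day 11, then 4.03 and 1.85 on day 14. All 9 injured libraries except the second of day 11 lay above the control. Cdc20, the activator of that complex, stood at 1.79 in the control, 41.5, 24.9 and 31.5 on days 1, 2 and 4, 17.7 and 13.4 on day 7 (3.10 ± 0.52, adjusted p = 0.00098), 4.23 and 3.28 on day 11, then 7.50 and 2.68 on day 14. Birc5, survivin of the chromosomal passenger complex, stood at 1.83 in the control, 43.8, 39.5 and 43.1 on days 1, 2 and 4, 13.5 and 18.5 on day 7 (3.14 ± 0.52, adjusted p = 0.000912), 5.97 and 3.28 on day 11, then 6.32 and 2.47 on day 14. Both stayed above the control in every injured library. The remaining mitotic members that rose on day 7 had changes between 0.69 (Hmgb2, a chromatin protein) and 3.61 (Cenpa, the centromeric histone).

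**Figure D2:**
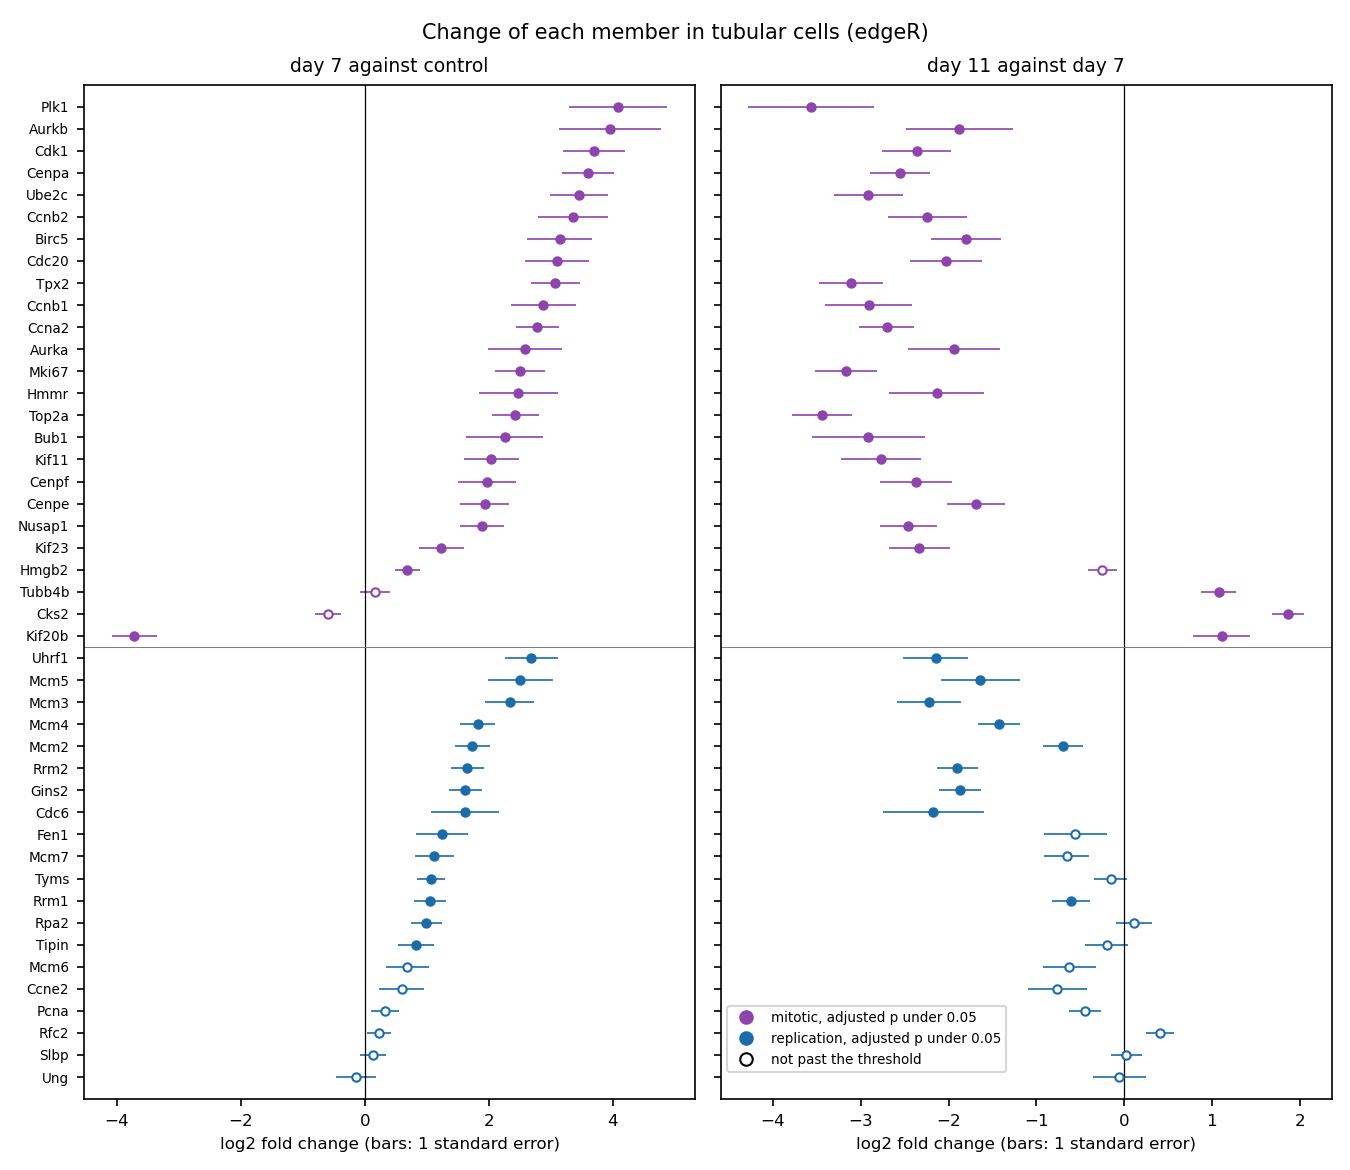
Log2 fold change of each of the 45 members in tubular cells on the x axis, day 7 against control on the left and day 11 against day 7 on the right, with bars of 1 standard error from edgeR. Filled points passed an adjusted p under 0.05; 21 of the 22 mitotic members that rose on day 7 fell by day 11, while Kif20b, Cks2 and Tubb4b lay to the right of 0 on day 11.

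RNA of other cell types also moved in the tubular sums. The 19 immune markers together made up 37.0 CPM (here without TMM) in the control, 93.0, 100.4 and 112 on days 1, 2 and 4, 303 and 144 on day 7, 73.5 and 102 on day 11, then 33.1 and 39.5 on day 14, with at least 16 of the 19 detected in each library and Coro1a at 0 in the control and in 1 library each of days 11 and 14. The 10 stromal markers summed to 13.8 in the control, 46.8, 29.5 and 28.0 on days 1, 2 and 4, 86.9 and 46.5 on day 7, and 5.09 to 30.2 later. The 14 endothelial markers summed to 36.6 in the control, 95.1 on day 1 and 28.0 to 58.6 in the other libraries, and the 5 podocyte markers to 3.35, 19.1 and 1.35 to 16.0. The 2 erythroid markers summed to 10.2 in the control, 824, 63.0 and 282 on days 1, 2 and 4, 572 and 10.9 on day 7, and 117 to 1318 later. The part of these RNAs in the rise of the members was not tested. With a stricter gate, which needs 5 marker UMIs and 90% of them from 1 class, 37 members were called on day 7. Marker sums were not taken under that gate, so this count does not speak to the part of these RNAs.

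Days 1, 2 and 4 had 1 library each, so values are given with counting intervals and without a test. On day 1, 18 of 20 replication and 23 of 25 mitotic members were at least 2-fold above the control, as were 17.4% of the 19614 genes with 10 or more UMIs. On day 2 these counts were 12 and 22 (15.6% of genes), and on day 4 they were 15 and 21 (15.2% of genes). Kif20b was the 1 member at least 2-fold lower on each of the 3 days, against 10.9%, 9.47% and 12.9% of genes. Of the 20 replication members, 19 had their highest group mean on day 1. Tipin, which stabilises stalled forks, had it on day 4. Groups of 1 library were here set beside means of 2 libraries. The share of all genes highest on day 1 was not counted, so these counts have no background.

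Most mitotic members were highest on day 1 or on day 4, each of them 1 library. Among the 21 mitotic members other than Hmgb2, Tubb4b, Cks2 and Kif20b, 15 were highest on day 1, Top2a and Mki67 among them. Shares over all genes were not counted here either. The other 6 were highest on day 4: Ccnb1, Ccnb2, Cdk1, Cenpa, Bub1, a spindle checkpoint kinase, and Ube2c. Top2a was 25.3-fold above the control on day 1 (95% exact conditional interval 21.8 to 29.6) and 6.58-fold on day 4 (5.64 to 7.71). Ccnb1 was 14.04-fold above it on day 1 (7.99 to 26.3) and 21.4-fold on day 4 (12.8 to 38.8). Its fold intervals overlapped between the days and those of Top2a did not. Cenpa stood at 6.60 on day 1 and 17.4 on day 4, against 0.610 in the control. For all 6 members highest on day 4 the fold intervals of days 1 and 4 overlapped. Both intervals of a member hold the counting error of the same control UMIs, which numbered 14 (Cenpa and Bub1) to 33 (Ube2c). Their overlap is therefore no comparison of day 1 with day 4, which was not tested. Some placements were close: Birc5 stood at 43.8 and 43.1 on days 1 and 4, and Ube2c at 23.4 and 26.2.

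Summed over the class, the 20 replication members made up 190 CPM in tubular cells of the control and 702, 312 and 439 on days 1, 2 and 4. They made up 305 and 318 on day 7, 241 and 233 on day 11, then 254 and 255 on day 14, so every injured library stayed above the control. The 21 mitotic members made up 54.0 in the control, 869, 446 and 479 on days 1, 2 and 4, 334 and 264 on day 7, 67.7 and 35.9 on day 11, then 87.8 and 46.7 on day 14. The later mitotic sums thus lay on both sides of the control. This sum leaves out Hmgb2, Tubb4b, Cks2 and, after its values were seen, Kif20b. Over all 25 mitotic members the sum was 484 in the control, 1333, 774 and 832 on days 1, 2 and 4, 569 and 508 on day 7, 466 and 535 on day 11, then 551 and 443 on day 14, so that the day 7 libraries stood little above the control. The ratio of UMIs of the 21 mitotic genes to replication UMIs was 0.284 in the control (95% exact interval 0.266 to 0.302), 1.24 on day 1, 1.43 on day 2, 1.09 on day 4, 1.10 and 0.828 on day 7, 0.281 and 0.154 on day 11, then 0.345 and 0.183 on day 14. All 5 libraries of days 1 to 7 had a ratio above those of the control and the 4 later libraries. With all 25 mitotic members this did not hold, and the control stood highest: the ratio was 2.54 in the control, 1.90, 2.48 and 1.89 on days 1, 2 and 4, 1.87 and 1.60 on day 7, and 1.74 to 2.29 in the 4 later libraries, which lay among those of days 1 to 7.

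**Figure D3:**
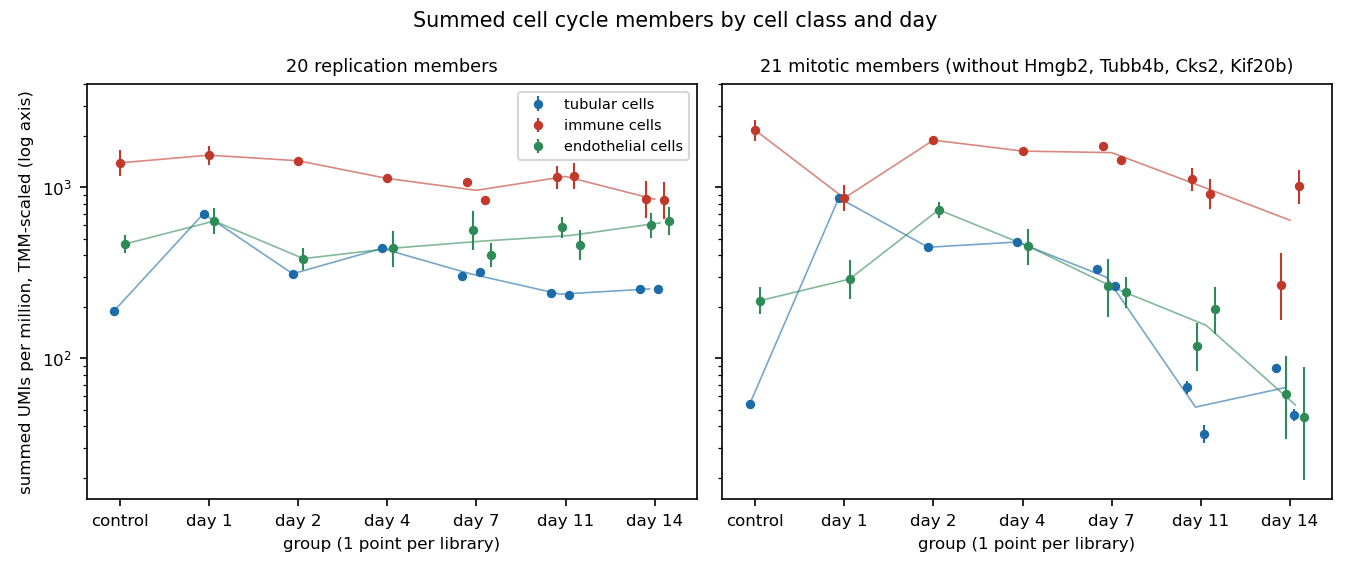
Summed level of the 20 replication members (left) and of 21 mitotic members (right) by group on the x axis, in TMM-scaled CPM on a shared log axis, with 1 point per library, 95% Poisson intervals and lines through group means. Tubular cells stood at 54.0 for the mitotic sum in the control and 869 on day 1, while immune cells stood between 269 and 2165 in all libraries.

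From day 7 to day 11 the members fell again in tubular cells. Of 45 members, 30 were lower and 3 were higher on day 11, against 21.4% and 22.9% of all genes and 44.3% called in either direction. Among mitotic members, 21 of 25 fell, with a median of -2.36 over the set, and 9 of 20 replication members fell, with a median of -0.64. The median over all genes was -0.07. The largest falls were those of Plk1 (-3.56 ± 0.72, adjusted p = 0.00232), Top2a (-3.44 ± 0.34, adjusted p = 2.3e-05) and Mki67 (-3.17 ± 0.35, adjusted p = 4.7e-05). Among replication members Mcm3 (-2.22 ± 0.36), Cdc6 (-2.17 ± 0.57) and Uhrf1 (-2.14 ± 0.37) fell furthest. Day 14 against day 7 gave 33 lower and 4 higher members, against 21.8% and 24.1% of genes and 45.9% called in either direction. All 25 mitotic members passed in that comparison, 22 of them lower, with Top2a (-2.99 ± 0.31), Kif23 (-2.64 ± 0.33) and Cdk1 (-2.56 ± 0.36) furthest down. Among replication members 11 fell, Cdc6 (-2.72 ± 0.53), Uhrf1 (-2.53 ± 0.34) and Mcm3 (-2.18 ± 0.32) furthest. The 4 members higher on day 14 than on day 7 were Kif20b (2.50 ± 0.32), Cks2 (1.48 ± 0.18), Tubb4b (0.77 ± 0.19) and Rfc2 (0.60 ± 0.16). Both comparisons share the day 7 libraries.

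Against the control, few members differed late, and some of them had not differed on day 7 (Rfc2, Cks2 and Tubb4b) or had then been higher in place of lower (Kif23). On day 11, 7 of 45 were called (15.6%, against 17.4% of all genes, 8.56% higher and 8.83% lower): Mcm2 (1.04 ± 0.29), Rfc2, Rpa2 (1.11 ± 0.25), Tyms, Cks2 (1.27 ± 0.23) and Tubb4b (1.24 ± 0.25) were higher and Kif20b (-2.61 ± 0.35) was lower. On day 14, 6 were called (13.3%, against 7.77% of genes, 4.47% higher and 3.3% lower): Mcm2 (1.35 ± 0.27), Rfc2 (0.83 ± 0.20), Tyms, Cks2 (0.88 ± 0.22) and Tubb4b (0.94 ± 0.24) were higher, and Kif23, a kinesin of the central spindle, was lower (-1.41 ± 0.37, adjusted p = 0.0448). With plain library totals the day 14 split was 4 higher and 2 lower, and with DESeq2 size factors 3 higher and 2 lower. Tyms differed by 0.92 ± 0.23 on day 11 (adjusted p = 0.0243) and 1.37 ± 0.23 on day 14 (adjusted p = 0.00937), but lost its call without the second day 14 library on both days. Of the 7 day 11 calls 2 (Cks2 and Kif20b) held in every alternative, and of the 6 day 14 calls 0 did. Leaving out 1 library cut the day 11 count to 3 (without the second day 11 library) or 4 (without either day 14 library) and the day 14 count to 3 or 2 (without the first or second day 14 library). Between days 11 and 14 only Kif20b was called (1.39 ± 0.31, adjusted p = 0.0166; 12.3% of all genes were called and 6.21% were higher), and it was not called without the first library of day 11 (adjusted p = 0.123) or of day 14 (adjusted p = 0.148).

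Tubb4b, Cks2 and Kif20b did not follow the other mitotic members on day 7, and Kif20b ran opposite to them. Kif20b, a plus-end kinesin of late mitosis, stood at 231 in the control, 59.6, 20.2 and 30.7 on days 1, 2 and 4, 19.1 and 16.3 on day 7, 30.1 and 45.8 on day 11, then 133 and 65.5 on day 14. Every injured library lay below the control, and its day 7 change was -3.72 ± 0.37 (adjusted p = 3.3e-05). The gene lies at chr19:34922361-34975745 (GRCm38, plus strand), and the microRNA gene Mir1950 lies within its bounds on the same strand. Over the set, 16 members overlap a gene on the other strand and 9 overlap one on the same strand, and whether the counting used strand was not given in the sources used here. Cks2, a small subunit bound by cyclin-dependent kinases, stood at 65.6 in the control, 69.3, 93.9 and 79.8 on days 1, 2 and 4, 41.0 and 45.5 on day 7, 139 and 177 on day 11, then 118 and 123 on day 14. Its change was -0.60 ± 0.21 on day 7 (adjusted p = 0.0501) and 1.87 ± 0.18 from day 7 to day 11 (adjusted p = 2.1e-05). Tubb4b, a beta tubulin also used outside mitosis, stood at 71.6 in the control and 145, 89.0 and 128 on days 1, 2 and 4. It stood at 73.9 and 86.1 on day 7, and 142 and 196 on day 11 (1.08 ± 0.20 from day 7 in edgeR, adjusted p = 0.00121). On plain totals the day 11 rises of Kif20b and Tubb4b lost their call, and the day 14 rises of Tubb4b and Rfc2 over day 7 turned to small falls. Hmgb2 moved in the direction of the majority, by a smaller amount. In edgeR it rose by 0.69 ± 0.21 on day 7 (adjusted p = 0.0249), from 61.5 to 102 and 96.5. It changed by -0.25 ± 0.17 from day 7 to day 11 (adjusted p = 0.2485, not called) and by -0.44 ± 0.17 from day 7 to day 14 (adjusted p = 0.0480). The latter call was lost in at least 1 alternative.

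The cells that held these UMIs were then located. Mitotic cells are here tubular cells with 2 or more UMIs of the 21-gene mitotic set, the gene in question left out. In the control, 5310 Kif20b UMIs were spread over 1430 tubular cells, and 5.73% of them lay in mitotic cells, which held 7.81% of all UMIs. The 21 genes had 20.1% (Kif23) to 100% (Aurkb, of 5 UMIs) there. On day 1 Kif20b had 72.9% in mitotic cells, with 30.3% of all UMIs, and the 21 genes had 74.5% to 91.7%. On day 7 Kif20b had 53.95%, with 23.1% of all UMIs, against 67.8% to 92.6%, and on days 11 and 14 it had 3.52%, with 2.196% of all UMIs, against 28.2% to 86.4%. Kif20b UMIs thus lay outside mitotic cells in the control and late, and mostly inside them on days 1 and 7. Pooled over all libraries, the 21 genes had 63.9% (Kif23) to 89.7% (Cdc20), the replication members 21.6% (Rfc2) to 74.7% (Rrm2), Hmgb2 39.0%, Tubb4b 22.5%, Cks2 20.95% and Kif20b 14.95%. The genes draw these pooled values from different libraries, so their order is not read. Cells of 1 library share their source, so these shares are descriptions without a test.

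**Figure D4:**
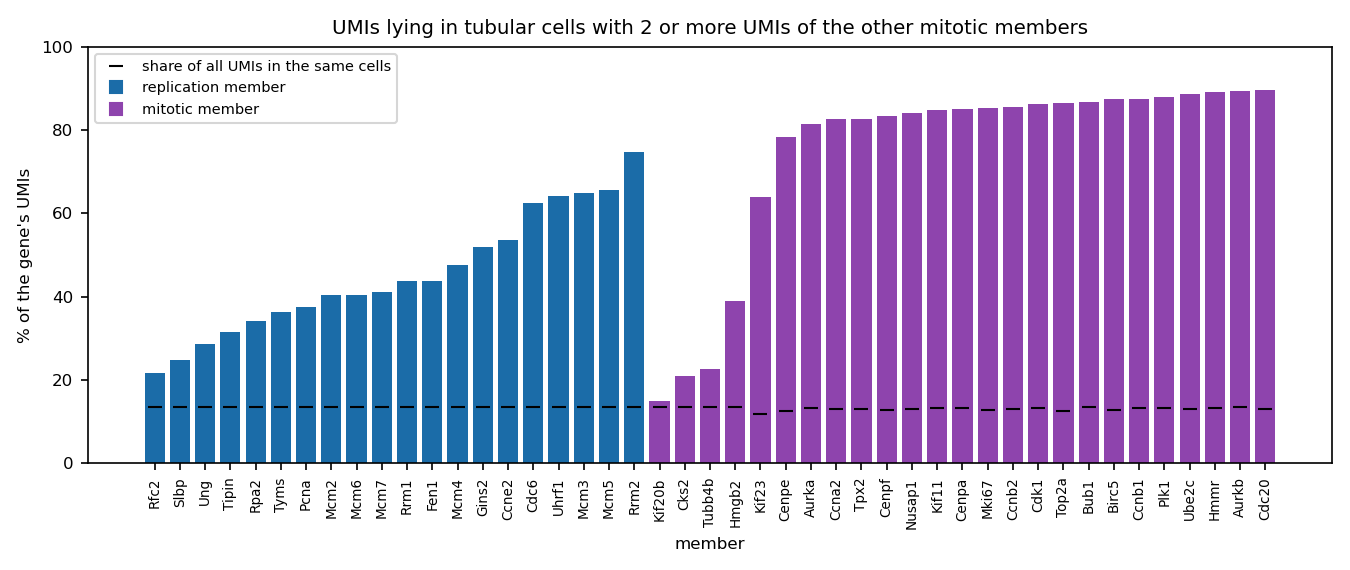
For each member on the x axis, the percentage of its tubular UMIs that lay in cells with 2 or more UMIs of the other mitotic members, over all 10 libraries. Black ticks give the share of all UMIs in the same cells; Kif20b sits at 14.95% in this pool, but had 5.73% in the control and 72.9% on day 1, so pooled positions depend on which libraries hold the UMIs.

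Other genes of the cycle were counted from lists that share no gene with the members. These lists too were drawn up with earlier results of these data known. Their counts come from the same libraries and cells, so they are no independent support. Of 34 further mitotic genes, 27 rose and 0 fell in tubular cells on day 7, with a median of 2.42, where 16.4% of all genes rose and 17.9% fell. The spindle checkpoint kinase Ttk rose by 3.36 ± 0.69 (adjusted p = 0.00337) and the cytokinesis protein Anln by 2.82 ± 0.41 (adjusted p = 0.0004). Of 35 further replication genes, 16 rose and 2 fell, with a median of 0.84. DNA ligase Lig1 rose by 2.18 ± 0.24 (adjusted p = 6.3e-05), and Mcm10, which helps start the replication fork, was among those that fell (-1.74 ± 0.58). Of 21 G1 cyclins, kinases and restraints, 8 rose and 3 fell, and the share that fell lay below that over all genes. Ccne1, cyclin E1, rose by 3.71 ± 0.67 (adjusted p = 0.00165), and so did the inhibitor Cdkn1a (p21), by 3.39 ± 0.26 (adjusted p = 9.1e-06). Ccnd1, cyclin D1, fell by 1.65 on the log2 scale (SE 0.21, adjusted p = 0.000183), and the pocket proteins Rb1 and Rbl2 changed by -0.80 ± 0.21 and -0.96 ± 0.20. On day 14 against the control, 0 of the 34 further mitotic genes were called by edgeR, against 7.77% of all genes, and 3 had an unadjusted p under 0.05, against 26.4% of all genes.

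Shares of cells were compared after each cell was thinned to 1000 UMIs, so that all had the same depth. Cells with fewer were left out, 4.01% of tubular cells in the control and 7.22% to 23.4% in the injured libraries, 14.1% to 39.4% of immune cells and 15.9% to 58.8% of endothelial cells. A cell counted as replication-positive with 2 or more UMIs of the 20 replication members, and as mitotic-positive with 2 or more of the 21 mitotic members. Kif20b was left out of the second set after its distribution had been seen. Among tubular cells, 0.449% were mitotic-positive in the control (95% Clopper-Pearson interval 0.285 to 0.673, 23 of 5126). Day 1 had 11.7% (10.3 to 13.2), day 2 had 6.1% (5.14 to 7.16) and day 4 had 8.07% (7.23 to 8.97). The mean of both libraries with its SD was 4.21% ± 0.42 for day 7, 0.42% ± 0.09 for day 11 and 0.45% ± 0.10 for day 14 (n = 2 each). Both day 7 libraries lay above the control interval, and all 4 later libraries lay within it. With Kif20b counted, the control share was 3.96% and the day 7 mean 4.42%, so that the rise rested on leaving it out. Intervals cover counting error only.

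Replication-positive tubular cells made up 1.13% of the control (0.860 to 1.46). Day 1 had 15.2% (13.7 to 16.9), day 2 had 4.24% and day 4 had 8.02%. The library means with their SD were 6.66% ± 0.11 for day 7, 2.03% ± 0.24 for day 11 and 2.16% ± 0.13 for day 14 (n = 2 each). Without thinning, the shares were 14.8% in the control, 32.7% on day 1 and 24.8% ± 4.9 on day 7, with a median of 2946.5 UMIs per control tubular cell against 1658 and 2404 on day 7. As a background, podocytes, which rarely divide, were replication-positive in 2.83% of 353 cells (1.37 to 5.15) and mitotic-positive in 0.283% (0.00717 to 1.57), at a median of 1385 UMIs per cell against 1983 in tubular cells. The replication shares of the control, day 11 and day 14 lay below that background. The 4.24% of day 2 lay within its interval, though above the interval of the control. Podocytes are another cell class and 193 of the 353 came from day 11, so their share is no measured floor for tubular cells. None of these replication shares is read as replication, and whether the day 2 share exceeds a tubular background was not tested. Neutrophils, planned as a second background, are not reported here. The mitotic shares of the control, day 11 and day 14 lay within the podocyte interval. Cells positive for both sets made up 0.137% of tubular cells in the control, 5.07% on day 1 and 1.70% ± 0.44 on day 7.

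**Figure D5:**
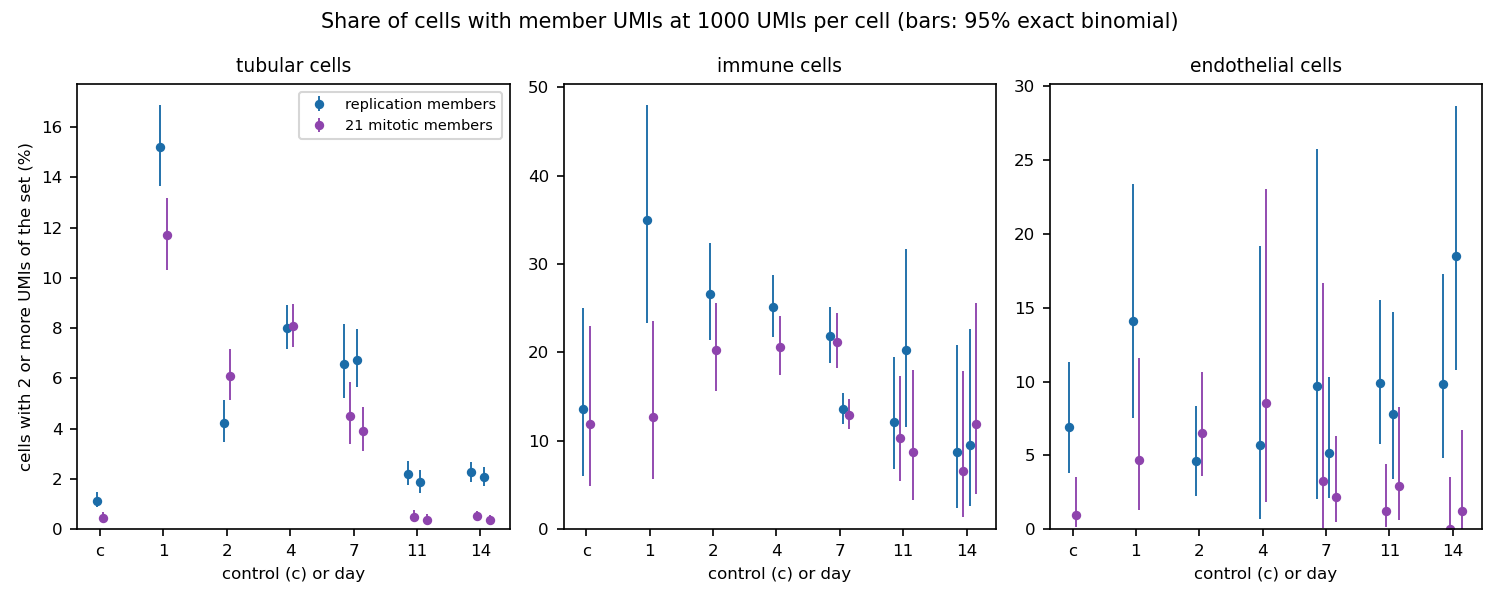
Percentage of cells with 2 or more UMIs of the replication members or of the 21 mitotic members after thinning to 1000 UMIs, by control (c) or day on the x axis, for tubular, immune and endothelial cells on separate y axes from 0. Each point is 1 library with its 95% exact binomial interval; tubular mitotic shares stood at 11.7% on day 1 and at or under 0.516% on days 11 and 14.

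On days 1, 2 and 4, mitotic-positive tubular cells held UMIs of the injury marker Havcr1, the kidney injury molecule KIM-1, more often than tubular cells with no mitotic UMI. Each of these days is 1 library and cells of 1 library are no replicates, so the intervals cover counting error only. Havcr1 and the proximal markers are among the 24 genes that gate the tubular class, so these shares depend in part on how the class was defined. On day 1, 62.7% of 233 mitotic-positive cells had a Havcr1 UMI (56.1 to 68.9), against 28.9% of 1482 tubular cells with no mitotic UMI (26.6 to 31.3). On day 2 the shares were 33.3% and 2.46%, and on day 4 they were 66.0% and 31.6%. Day 7 gave 21.2% and 18.4% of 52 and 76 mitotic-positive cells, against 31.4% and 21.3% of the others, with overlapping intervals in both libraries. At least 1 proximal tubule marker UMI was found in 72.1% of mitotic-positive cells on day 1, 76.1% on day 2, 49.04% on day 4 and 23.1% and 19.7% on day 7. Tubular cells without mitotic UMIs had 44.7%, 76.04%, 69.98%, 34.9% and 33.1%. In the control the shares were 52.2% of 23 cells (30.6 to 73.2) and 74.7%, and in the 4 later libraries 75% to 93.3% of 13 to 30 cells against 80.4% to 86.97%. Mitotic-positive cells thus lay above the tubular cells without mitotic UMIs on day 1 and level with them on day 2. They lay below them in the control, on day 4 and in both day 7 libraries, with overlapping intervals in the first of the day 7 libraries. The later libraries went both ways.

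The members made up a larger share of the UMIs of immune cells than of those of tubular cells. The levels were scaled within each class, and member UMIs per cell were not compared. Summed over all 45, the level ran from 1741 to 4481 CPM in immune cells and from 674 to 2036 in tubular cells, and it was higher in the immune class within each of the 10 libraries. The immune replication sum was 1391 in the control, 1544, 1432 and 1128 on days 1, 2 and 4, 1077 and 846 on day 7, 1145 and 1172 on day 11, then 858 and 846 on day 14. The mitotic sum of the 21 genes was 2165 in the control, 865, 1890 and 1631 on days 1, 2 and 4, 1750 and 1444 on day 7, 1113 and 921 on day 11, then 269 and 1016 on day 14. The control value of this sum thus lay above every injured library, but over all 25 mitotic members it was 2930, under the 3048 of day 2. In the control, 66.7% of the 204 mitotic UMIs came from 3 of the 74 cells, against 8.08% and 7.68% from 3 cells on day 7.

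In the immune comparisons, 33 members passed the filter on low counts. Tubb4b was the 1 member called on day 7 against the control (3.05% of 4728 genes), with 0 UMIs in the control and 112 and 292 on day 7, a level at least 2.48-fold higher when the control is set to 3 UMIs. Leaving out either day 7 library or either day 11 library ended that call. Day 14 against control, day 11 against day 7 and day 14 against day 7 gave 0 called members each in edgeR (0.317%, 4.91% and 3.74% of genes). At an unadjusted p under 0.05 there were 7, 5 and 7 members (11.1%, 19.6% and 15.9% of genes), and 9 on day 7 against control (16.9% of genes). Under alternative analyses these 3 counts reached at most 3, 2 and 2. Ube2c came closest from day 7 to day 14 in edgeR (-3.40 ± 0.94, adjusted p = 0.0623). In that comparison all 17 mitotic members tested had a lower level, with a median of -1.36 against -0.01 over all genes. The 7 members with an unadjusted p under 0.05 were all mitotic. Of 16 replication members, 6 were higher and 10 lower, with a median of -0.31. Mki67 stood at 701 in the control, 147, 290 and 184 on days 1, 2 and 4, 277 and 159 on day 7, 104 and 27.9 on day 11, then 25.6 and 221 on day 14, with 2 to 573 UMIs behind each value. The day 14 libraries lay far apart.

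Within the immune class, T and NK cells had the largest shares: 45.2% of 272 cells were replication-positive (39.2 to 51.3) and 34.6% mitotic-positive (28.9 to 40.5). Macrophages had 16.4% (15 to 18.0) and 14.98% (13.6 to 16.4) of 2457 cells. Median depth was 1184 UMIs in T and NK cells and 1612 in macrophages. Both groups pool all libraries, mostly of days 4 and 7, so these shares describe the pooled cells. Cells too shallow to be thinned are left out of them. On day 7, T and NK cells were mitotic-positive in 47.34% ± 16.62 thinned and 34.24% ± 4.257 unthinned (library means with SD, n = 2). Their replication-positive means were 45.89% and 42.71%. Macrophages had lower thinned than unthinned means, 14.65% against 16.26% mitotic-positive and 14.78% against 25.04% replication-positive. The part of the left-out cells in the T and NK shares was not tested. Immune mitotic-positive shares by library were 11.9% in the control (4.91 to 22.9), 12.7% on day 1, 20.2% on day 2, 20.6% on day 4, 21.2% and 13.0% on day 7, 10.3% and 8.70% on day 11, then 6.52% and 11.9% on day 14.

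Endothelial cells held few member UMIs, and 16 members passed the filter. None of the 16 was called in edgeR in day 7 or day 14 against control, day 11 against day 7 or day 14 against day 7, where 3.33%, 2.17%, 7.62% and 3.12% of 6823 genes were called. At an unadjusted p under 0.05 the counts were 1, 3, 2 and 4 (13%, 14.1%, 21.6% and 13.6% of genes), and under alternative analyses at most 1 member was called. The 21 mitotic genes summed to 218 CPM in the control, 291 on day 1, 739 on day 2, 454 on day 4, 263 and 245 on day 7, 118 and 194 on day 11, then 61.5 and 45.2 on day 14. In the control, 62.2% of the 119 mitotic UMIs lay in 1 cell, on day 4 40% of 70 lay in 1 cell, and on day 2 40.5% of 363 lay in 3 cells. The day 2 library stood highest, and 14 of the 21 genes had their highest group mean there, with Cenpe, a kinetochore kinesin, at 82 of its 363 mitotic UMIs. The share of all genes highest on day 2 was not counted, so the 14 have no background.

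The change from control to day 7 was then compared between classes within 1 model that kept each library as a block. Over all genes the median difference was -0.593 against immune cells and 0.0191 against endothelial cells, so values against immune cells are not centred on 0. Over the members it was 1.29 and 1.09. Tubular minus immune change was called for 7 members (6.93% of 12293 genes). It was positive for Mki67 (4.01 ± 0.32), Top2a (3.39 ± 0.39), Cenpf (3.02 ± 0.55), Mcm4 (2.56 ± 0.87) and Rrm2 (2.41 ± 0.71). It was negative for Kif20b (-2.60 ± 0.38) and for Tubb4b, whose value rests on 0 control UMIs. Tubular minus endothelial change was called for 6 members (7.92% of genes): Tpx2 (5.66 ± 1.05), Cenpa (4.29 ± 0.93), Mcm3 (2.91 ± 0.77), Nusap1 (2.59 ± 0.77) and Mki67 (2.31 ± 0.56) were positive and Kif20b (-2.84 ± 0.74) was negative. Of these 6, Tpx2, Cenpa, Nusap1 and Kif20b had not passed the filter on low counts in endothelial cells and entered the joint model through their tubular counts. Their endothelial control UMIs numbered 14, 12, 15 and 19, so these 4 differences are not read as differences between the classes. Under the alternatives run (strict gate, loose gate, no filter on low counts), Mki67, Top2a and Kif20b kept their call against immune cells. The Mki67 value was smaller with the strict gate, at 2.73 ± 0.55. Mcm4 lost its call in all 3, Rrm2 with the strict gate (a fitted -8.92 ± 7.40, adjusted p = 0.680) and without the filter (adjusted p = 0.0625), and Cenpf with the strict gate (0.56 ± 1.27, adjusted p = 0.906). Tubb4b lost its call with the strict and the loose gate, where its value was -2.17 ± 0.81 (adjusted p = 0.0949). With the strict gate 4 members were called in all. Against endothelial cells, Mcm3 lost its call with the strict gate (adjusted p = 0.144). Adjusted p-values of these edgeR contrasts ran from 3.3e-33 for Mki67 to 0.0489 for Mcm4 against immune cells, and the control side rests on the few dividing immune and endothelial cells described above. The part of these cells in the differences was not tested. The control is 1 library, so the p-values do not measure its spread. The test also borrows spread across genes. Immune Mki67 levels differed widely between the 2 libraries of day 14. The SE and adjusted p of Mki67 are therefore not read as its own spread between libraries. No alternative of these contrasts left out a library.

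The scaling bears on the size of every day 7 change. TMM factors in tubular cells were 1.44 and 1.39 on day 7 and 0.827 in the control. On plain totals the median log2 change of all genes from control to day 7 was 0.81 in place of 0.04, that of the members was 2.66 in place of 1.89, and 42 members were higher and 1 lower. Of the 37 members called on day 7, 27 kept their call in every alternative analysis; Aurka, Bub1, Cdc6, Fen1, Hmgb2, Hmmr, Kif23, Mcm5, Mcm7 and Tipin lost it in at least 1.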

How the data were processed

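The 10 tables, 1 per library, hold gene counts per cell barcode as the authors deposited them. The labels describe Drop-seq with 3′ libraries made with Nextera XT; the whole-number counts were read as UMIs, which the labels do not state. Bowtie2 2.2.7 and mm10 are named per the submitters' processing notes, and other steps were not given in the sources used here. The members and lists were chosen with earlier results of these data known.

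A barcode was kept as a cell from 500 UMIs and 500 genes upward, if no more than 50% of its UMIs were mitochondrial. The tables of day 11 reach down to 300 genes per barcode, those of the other groups to 500. A cell joined a class with at least 3 UMIs over at least 2 of its marker genes and 80% of all marker UMIs; 5938 cells stayed ungated, cells of mixed markers among them, and no doublet caller was run. Raw counts were summed per library and class (depths in the report) and tested with edgeR 4.0.16 (R 4.3.3): filterByExpr, TMM, 1 term per group over all libraries, quasi-likelihood F test, Benjamini-Hochberg over all genes tested, threshold 0.05. SE is the log2 fold change divided by the square root of F. Replicate libraries differed beyond counting noise (chi-square per degree of freedom 1.74 to 26.2). Interaction contrasts used 1 model over the classes with a block per library. Cell shares were taken after thinning to 1000 UMIs with a fixed seed. Scripts were tested on simulated data.

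Named in full were members fixed by name beforehand, the 3 largest changes per comparison and set, and members that moved against their set. A few others were named after their values were seen. A gene of the further replication list is counted but not reported here by name. Alternatives covered DESeq2 1.42.0, its size factors, no filter on low counts, only the compared groups, other gates and cell filters, leaving out each library and a replicate block. Plain totals and leaving Kif20b out of the mitotic share were added after the data were seen.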

Additional observations from a re-analysis of the deposited data

Results flagged for a closer look

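For 13 pairs of member and class, the interaction contrast of edgeR with Benjamini-Hochberg adjustment called a difference between cell classes in the change from control to day 7. The control is 1 library, so these p-values do not measure its spread. The test borrows spread across genes, and immune Mki67 levels differed widely between the 2 libraries of day 14. No alternative of these contrasts left out a library. In its immune class 66.7% of the 204 mitotic UMIs came from 3 of 74 cells. Over all genes the median difference was -0.593 against immune cells. Against immune cells, the tubular log2 change was larger by 4.01 for Mki67 (adjusted p = 3.3e-33), 3.39 for Top2a (1.6e-15), 3.02 for Cenpf (3.5e-06), 2.56 for Mcm4 (0.0489) and 2.41 for Rrm2 (0.0142). It was lower for Kif20b, with a difference of -2.60 (7.2e-10). Tubb4b had a fitted difference of -11.24 (0.00776), which is no bound because the control immune cells held 0 Tubb4b UMIs. With the strict gate Cenpf, Mcm4, Rrm2 and Tubb4b lost their call, and the fitted value of Rrm2 changed sign; Mcm4 and Tubb4b also lost it with the loose gate, and Mcm4 and Rrm2 without the filter on low counts.

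Against endothelial cells, the tubular change was larger by 5.66 for Tpx2 (adjusted p = 3.6e-06), 4.29 for Cenpa (0.000129), 2.91 for Mcm3 (0.00373), 2.59 for Nusap1 (0.0143) and 2.31 for Mki67 (0.000953) in the same edgeR model. For Kif20b the difference was -2.84 (0.00273). Tpx2, Cenpa, Nusap1 and Kif20b had not passed the filter on low counts in endothelial cells; Tpx2, for example, rests on 14 UMIs in the control and on 0 and 2 on day 7. These 4 values are therefore not read as differences between the classes.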

How the results depend on the processing

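In tubular cells the counts of called members on day 7 against control (37 in the main analysis), day 11 against day 7 (33) and day 14 against day 7 (37) stayed within 1.5 times under every alternative; leaving out 1 library gave 33 to 38, 26 to 34 and 29 to 37. Against control, day 11 gave 7 (3 to 7 with 1 library left out, 4 with the DESeq2 Wald test) and day 14 gave 6 (2 to 8 with 1 left out, 15 without the filter on low counts). Day 14 against day 11 gave 1 (0 to 2 with 1 left out, 4 without the filter). Replicate numbers did not pair the libraries (correlations of deviations -0.0515 to 0.0646); with the replicate block, days 11 and 14 against day 7 gave 35 and 37 and day 14 against day 11 gave 2.

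Immune day 7 against control gave 1; it gave 0 with the DESeq2 Wald test, the loose gate, without the 5% of cells with most UMIs or at a mitochondrial limit of 25%, 2 without the filter or with only the 2 groups, and 0 to 1 with 1 library left out. Immune day 14 against control gave 3 without the filter, day 11 against day 7 gave 2 without the filter or on plain totals and 1 with the strict gate, and day 14 against day 7 gave 2 without the filter or with the loose gate and 1 on plain totals, each from 0. Endothelial day 14 against control gave 1 without the filter, and day 14 against day 7 gave 1 with the loose gate, without the top 5% of cells or on plain totals and 0 to 1 with 1 library left out, each from 0. The tubular minus immune contrast gave 4 with the strict gate in place of 7.

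On plain totals Rfc2 and Tubb4b on day 14 against day 7 became -0.25 and -0.082, Tyms -0.55, and Rpa2 and Slbp on day 11 against day 7 -0.66 and -0.75. The share of replication-positive tubular cells on day 7 divided by that of the control, which lay below the podocyte background and makes the ratio no measure of replicating cells, was 5.89; the ratio was 5.73 at 700 UMIs, 1.68 unthinned, 14.1 at 3 or more UMIs, 2.17 at 1 or more, 6.35 with the strict and 6.17 with the loose gate. The mitotic ratio with Kif20b was 1.12; it was 1.52 at 700 UMIs, 0.560 unthinned, 1.95 at 3 or more UMIs, 0.975 at 1 or more and 9.38 without Kif20b. The cause was not tested. The immune and endothelial comparisons rest on few cells, with 74 control immune cells in those against the control. Whether depth accounts for the few calls in these classes was not tested. The single control library limits every comparison against it.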
